A study of Mus musculus with 12 samples.

Results

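The endogenous opioid system is represented here by 8 genes. Penk, Pdyn, Pomc and Pnoc encode the 4 peptide precursors, and Oprm1, Oprd1, Oprk1 and Oprl1 encode the 4 receptors. They were taken by name, as the rows of the deposited count table that carry these symbols, and each of the 8 was found once among 54429 entries. The table comes from 12 RNA libraries of brain punches of C57BL/6 mice, 3 in each of 4 groups. The libraries of isolated females and group-housed females came from punches labelled VTA, and those of isolated males and group-housed males from punches labelled BLA. The isolated mice were socially isolated early in life, per the treatment label, and the design text gives the sexes. Region and sex therefore change together, and in no comparison of VTA with BLA can they be told apart. The ages and the length of isolation are not stated in the sources used here. Nor is it stated that each library is a different animal, so p-values here reflect variation among libraries, which may be technical.

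Opioid peptides are cut out of larger precursor proteins and act on receptors that couple to inhibitory G proteins, which lower cyclic AMP, open potassium channels and close calcium channels. Enkephalins, from Penk, act mainly at the delta and mu receptors (Oprd1 and Oprm1), dynorphins, from Pdyn, at the kappa receptor (Oprk1), beta-endorphin, from Pomc, at mu and delta receptors, and nociceptin, from Pnoc, at the nociceptin receptor (Oprl1). In the ventral tegmental area, mu receptors on GABA neurons release dopamine neurons from inhibition, while kappa receptors inhibit dopamine neurons directly. Enkephalin and dynorphin are made by GABA neurons of the striatum and the central amygdala, which lies beside the basolateral amygdala.

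Total counts per library ran from 28278708 to 69276892. Levels are CPM, counts relative to the library's total, scaled with TMM factors over the 12 libraries, where TMM is a correction for differences in RNA composition. The dopamine transporter gene Slc6a3 lay between 230.7 and 520.6 CPM in the VTA libraries and at most at 1.09 CPM in the BLA libraries. Slc17a7, a transporter gene of cortical and amygdalar glutamate neurons, ran from 2.88 to 232 CPM in the VTA libraries, where isolated library 3 was the highest, and from 449 to 984 CPM in the BLA libraries. The entries Lars2, CT010467.1 and Gm15564, taken here as ribosomal RNA loci, made up 18.6% to 41.8% of the counts of 3 BLA libraries (number 3 of the isolated and numbers 1 and 2 of the group-housed), and 1.57% or less elsewhere. Lars2 is itself a protein-coding gene, and it held 6947564 counts in group-housed BLA library 2. That these reads come from ribosomal RNA was assumed and not tested. The 3 libraries are called rich in ribosomal RNA reads below. In bulk tissue, fewer cells of a type and less RNA per cell cannot be told apart.

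Peptide and receptor genes were found on both sides of the comparison of VTA with BLA. Penk, Pdyn and the delta receptor gene Oprd1 were lower in VTA than in BLA, whereas Pnoc and its receptor gene Oprl1, and Pomc, were higher in VTA. The mu receptor gene Oprm1 did not differ beyond its spread, and the kappa receptor gene Oprk1 was slightly lower in VTA. In all, 7 of the 8 genes passed an adjusted p of 0.05 (edgeR quasi-likelihood test on 12 libraries, Benjamini-Hochberg adjusted over 25009 genes), 3 of them higher and 4 lower in VTA. Of all genes tested, 47.7% passed, 24.1% being higher and 23.7% lower. At an unadjusted p under 0.05 there were also 7 of the 8 genes and 53.5% of all genes. The libraries of the regions did not overlap at 6 of the 8 genes, against 27.1% of all genes.

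**Figure D1:**
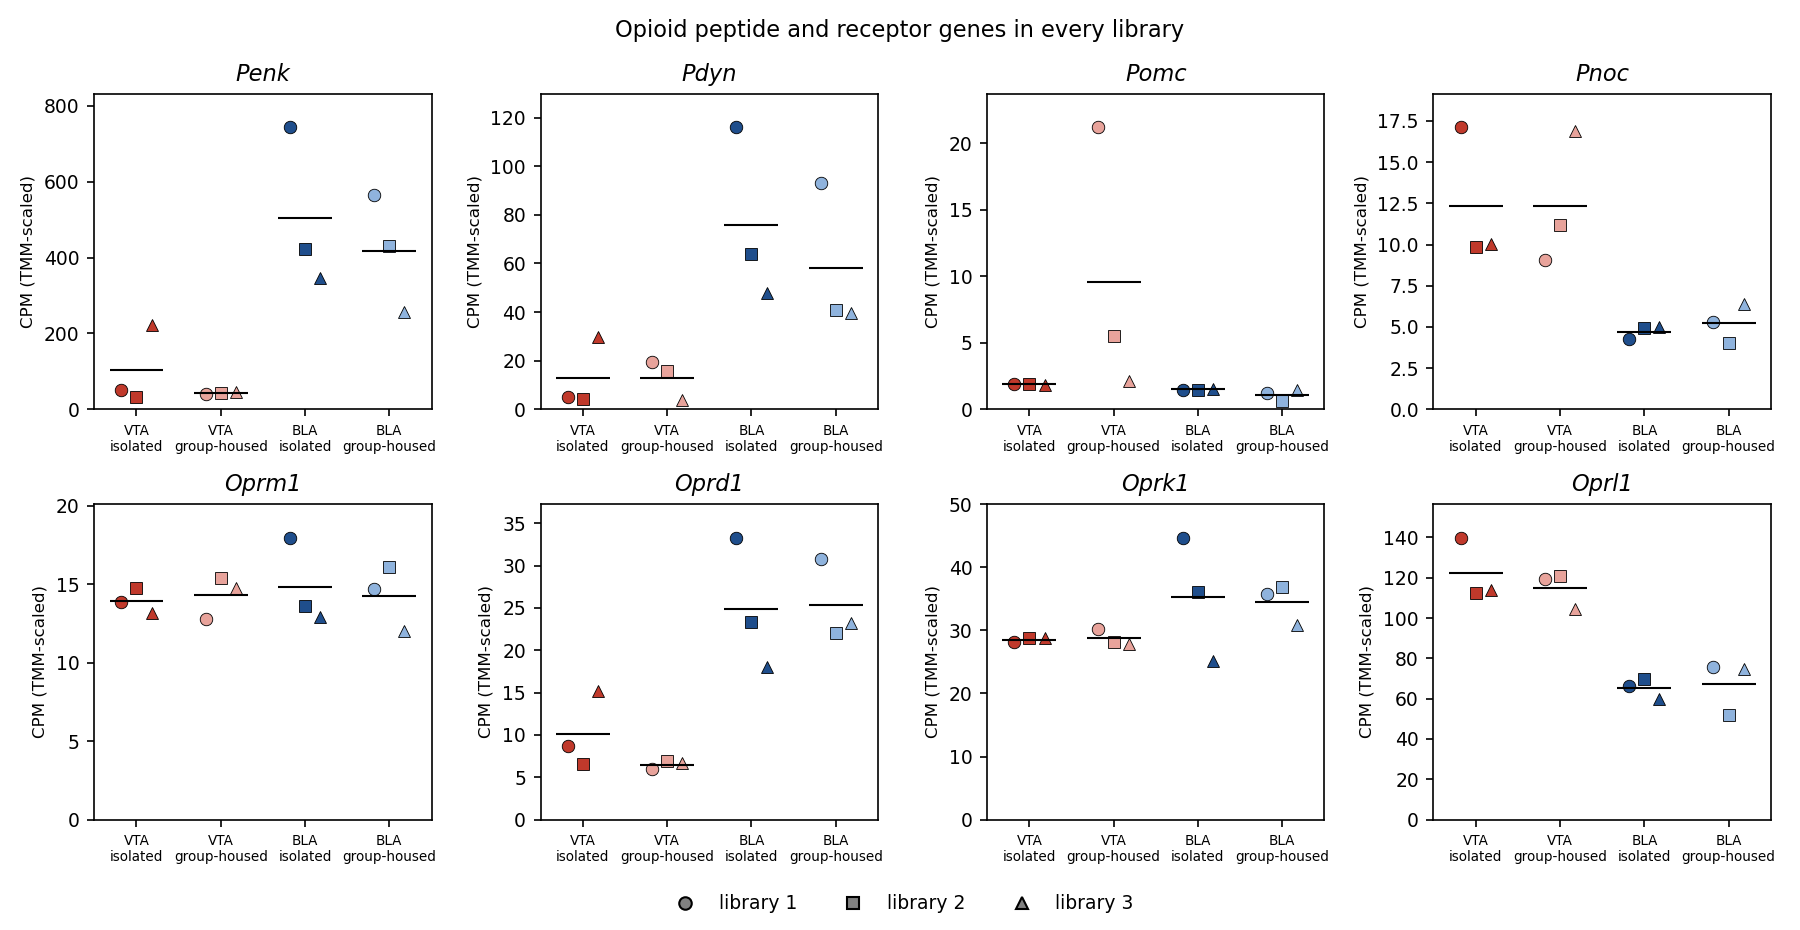
Level of each opioid gene in every library, in TMM-scaled CPM on linear axes that start at 0; each point is 1 library (marker shape gives its number), and horizontal lines are means of the 3 libraries of a group. Penk and Pdyn stand highest in isolated BLA library 1, at 743.6 and 116 CPM, and Pomc in group-housed VTA library 1, at 21.2 CPM.

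Penk, the enkephalin precursor gene, lies on chromosome 4 from 4133531 to 4138819 on the minus strand (mm10, GENCODE M21 annotation). It reached 52.2, 33.4 and 221.7 CPM in isolated VTA libraries 1, 2 and 3, and 39.4, 44.1 and 45.2 CPM in group-housed VTA libraries. In BLA it lay at 743.6, 424 and 345 CPM in isolated libraries and at 566, 429.7 and 256 CPM in group-housed libraries. Every VTA library lay below every BLA library, but isolated VTA library 3 came within a short distance of group-housed BLA library 3. VTA over BLA gave a log2 fold change of -2.79 (SE 0.51, edgeR adjusted p = 0.00185), lower in 6 of 6 VTA libraries. Without isolated VTA library 3 it was -3.42. On the opposite strand, the processed transcript gene A830012C17Rik shares 233 exonic bases with Penk, 14.3% of the exon length, and reached at most 1.17 CPM. Since no source used here states whether reads were counted by strand, reads of such antisense partners cannot be told apart.

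Pdyn, the dynorphin precursor gene, lies on chromosome 2 from 129686565 to 129699844 on the minus strand. Its levels in VTA were 5.26, 4.09 and 29.9 CPM in isolated libraries 1, 2 and 3, and 19.3, 15.9 and 3.76 CPM in group-housed libraries 1, 2 and 3. In BLA they were 116, 64.1 and 48.0 CPM in isolated libraries, and 93.1, 41.0 and 39.8 CPM in group-housed libraries. The VTA libraries thus fell into a lower set of 3.76 to 5.26 CPM and a higher set of 15.9 to 29.9 CPM, and each set held libraries of both housing groups. On the log2 scale, VTA over BLA stood at -2.35 (SE 0.65, edgeR adjusted p = 0.0161). The call was lost without the 3 BLA libraries rich in ribosomal RNA reads (adjusted p = 0.113), and within isolated libraries alone (adjusted p = 0.0647) or group-housed libraries alone (adjusted p = 0.0981), at log2 fold changes from -2.54 to -2.17.

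Pomc, the precursor gene of beta-endorphin and of several pituitary hormones, lies on chromosome 12 from 3954951 to 3960642 on the plus strand. It stood at 1.92, 1.88 and 1.87 CPM in isolated VTA libraries, and at 21.2, 5.52 and 2.11 CPM in group-housed VTA libraries 1, 2 and 3. In BLA it lay at 1.48, 1.48 and 1.52 CPM in isolated libraries, and at 1.24, 0.606 and 1.49 CPM in group-housed libraries, where the lowest value rests on 10 counts. Its VTA libraries all lay above its BLA libraries, 4 of them by a small margin. Set against BLA, the VTA log2 fold change came to 1.68 (SE 0.50, edgeR adjusted p = 0.0195). It was 0.34 between isolated libraries alone (adjusted p = 0.749), 3.03 between group-housed libraries alone (adjusted p = 0.00931) and 1.02 without group-housed VTA library 1 (adjusted p = 0.00472). The call was also lost without the 3 BLA libraries rich in ribosomal RNA reads (adjusted p = 0.192) and without isolated VTA libraries 1 and 3 (adjusted p = 0.0997).

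Pnoc, the nociceptin precursor gene, lies on chromosome 14 from 65400673 to 65425472 on the minus strand. It measured 17.1, 9.85 and 10.02 CPM in isolated VTA libraries and 9.07, 11.2 and 16.9 CPM in group-housed VTA libraries. In BLA it measured 4.26, 4.93 and 4.98 CPM in isolated libraries and 5.28, 3.996 and 6.39 CPM in group-housed libraries. The regions did not overlap, and in VTA 1 library of each housing group stood above the others. VTA over BLA gave a log2 fold change of 1.30 (SE 0.19, edgeR adjusted p = 5.7e-05), and from 1.15 to 1.39 when each library in turn was left out.

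Oprl1, the gene of the nociceptin receptor, lies on chromosome 2 from 181715016 to 181720985 on the plus strand. It was the most highly expressed of the 4 receptor genes per length in both regions. It reached 139.9, 112 and 114 CPM in isolated VTA libraries and 119, 120.9 and 105 CPM in group-housed VTA libraries. The BLA values were 66.3, 70.0 and 59.6 CPM in isolated libraries and 75.5, 52.0 and 74.5 CPM in group-housed libraries. Each VTA library exceeded each BLA library. On the log2 scale, VTA over BLA stood at 0.83 (SE 0.09, edgeR adjusted p = 4.76e-06). Ligand and receptor gene of the nociceptin pair were thus both higher in VTA, each in 6 of 6 libraries.

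Oprd1, the delta receptor gene, lies on chromosome 4 from 132110726 to 132144486 on the minus strand. It stood at 8.71, 6.51 and 15.2 CPM in isolated VTA libraries and at 5.95, 6.88 and 6.64 CPM in group-housed VTA libraries. In BLA it stood at 33.3, 23.3 and 18.04 CPM in isolated libraries and at 30.8, 22.04 and 23.2 CPM in group-housed libraries. No VTA library reached the BLA range, and isolated library 3, the highest for Penk and Pdyn in VTA, was also the highest for Oprd1. Set against BLA, the VTA log2 fold change came to -1.63 (SE 0.22, edgeR adjusted p = 0.000105).

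Oprk1 and Oprm1 were the most even of the 8 genes among VTA libraries, with coefficients of variation of 2.99% and 7.26%. Oprk1, on chromosome 1 from 5588466 to 5606131 on the plus strand, lay at 28.1, 28.8 and 28.7 CPM in isolated VTA libraries and at 30.3, 28.2 and 27.9 CPM in group-housed VTA libraries. In BLA it spread more widely, at 44.7, 36.1 and 25.2 CPM in isolated libraries and 35.8, 36.9 and 30.8 CPM in group-housed libraries. The median coefficient of variation over all genes of at least 1 CPM was 13.3% in VTA, and in BLA it was 11.9%, where Oprk1 reached 18.7%. VTA over BLA gave a log2 fold change of -0.28 (SE 0.11, edgeR adjusted p = 0.0415), and the regions overlapped. Leaving out any one library other than isolated or group-housed BLA library 3 ended this call, at adjusted p-values up to 0.116.

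Oprm1, on chromosome 10 from 6758506 to 7038198 on the plus strand, lay at 13.8, 14.8 and 13.2 CPM in isolated VTA libraries and at 12.8, 15.4 and 14.7 CPM in group-housed VTA libraries. In BLA it lay at 17.96, 13.6 and 12.9 CPM in isolated libraries and at 14.7, 16.1 and 11.98 CPM in group-housed libraries. All 4 groups overlapped. On the log2 scale, VTA over BLA stood at -0.04 (SE 0.10, edgeR adjusted p = 0.772). Ipcef1, a gene on the other strand at 22.3 to 139.8 CPM, shares 96 exonic bases with Oprm1, 1.19% of its exon length.

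**Figure D2:**
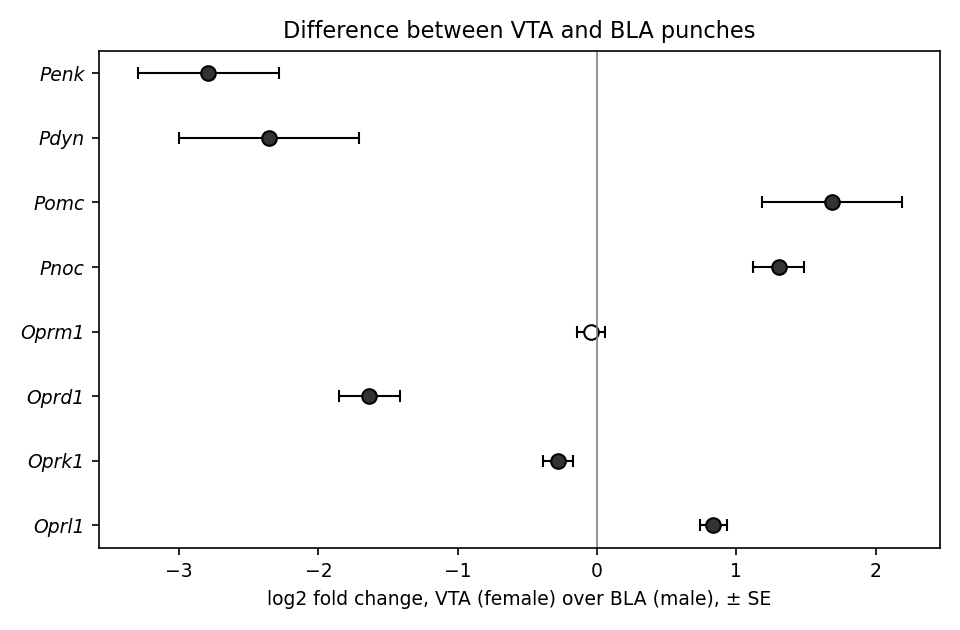
Log2 fold change of VTA over BLA for each of the 8 genes (horizontal axis, bars are ± SE, derived from the F statistic of the edgeR test of 12 libraries). Filled points passed an adjusted p of 0.05. Penk, Pdyn and Oprd1 lie left of 0 at -2.79, -2.35 and -1.63, Pomc, Pnoc and Oprl1 right of it at 1.68, 1.30 and 0.83, and Oprm1 at -0.04.

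Levels of different genes were compared per length, as CPM per kilobase of merged exons. Penk came first in both regions, with a mean of 44.5 CPM per kilobase in VTA and 282 in BLA. In VTA the range of Penk overlapped that of Oprl1, which averaged 31.6 CPM per kilobase, and these exceeded the other 6 genes, whose means ran from 1.75 to 5.72 with each overlapping its neighbour in the order. In BLA, Pdyn at 23.2 and Oprl1 at 17.7 CPM per kilobase overlapped each other and followed Penk, and Pomc was last at 0.988. As a share of the summed per-length level of the 4 receptor genes, Oprl1 made up 81.4% in isolated VTA and 82.4% in group-housed VTA, and 59.9% in isolated BLA and 59.9% in group-housed BLA. Oprd1 made up 6.34% and 4.36% in isolated and group-housed VTA, and 20.8% and 21.1% in isolated and group-housed BLA. Among the peptide genes, Penk made up 78.9% in isolated VTA (73.4% to 89.2% between libraries) and 61.2% in group-housed VTA (47.2% to 72.1%). Differences in share were not tested. Pomc made up 3.14% in isolated VTA and 15.2% in group-housed VTA, where its share ran from 4.16% to 31.5% between libraries. Pnoc made up 12.6% in isolated VTA and 13.7% in group-housed VTA. In BLA, Penk made up 91.2% in isolated and 91.5% in group-housed libraries. With the longest coding transcript as the length, Oprm1 moved up from last to the fourth place in VTA, at 5.83 CPM per kilobase, so the order of the low receptor genes depends on the length used.

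Promoter sequences of 5 of the 8 genes were found in the RefSeq table (GRCm38.p6), with none there for Penk, Pnoc and Oprk1. The 250 bases before the RefSeq gene start are shown for 4 genes that differed between the regions: a peptide and a receptor gene that were lower in VTA (Pdyn and Oprd1), and a peptide and a receptor gene that were higher there (Pomc and Oprl1). They run 5′ to 3′ on the gene's strand, at chr2:129699939-129700188 (minus), chr4:132144487-132144736 (minus), chr12:3954695-3954944 (plus) and chr2:181714766-181715015 (plus). Capitals mark matches on either strand to a TATA box (TATAAA), a cyclic AMP response half-site (TGACG), a GC box (GGGCGG) or a CCAAT box (CCAAT).
Pdyn: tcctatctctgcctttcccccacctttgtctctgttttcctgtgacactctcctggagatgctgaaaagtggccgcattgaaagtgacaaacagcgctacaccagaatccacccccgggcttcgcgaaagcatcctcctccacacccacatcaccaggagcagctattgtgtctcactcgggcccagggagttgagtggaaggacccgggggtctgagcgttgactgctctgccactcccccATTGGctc
Oprd1: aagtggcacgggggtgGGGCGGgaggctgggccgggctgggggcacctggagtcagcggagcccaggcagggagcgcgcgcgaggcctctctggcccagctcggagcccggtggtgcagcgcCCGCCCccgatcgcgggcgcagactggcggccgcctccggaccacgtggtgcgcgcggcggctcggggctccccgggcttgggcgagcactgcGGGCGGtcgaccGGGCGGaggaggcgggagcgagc
Pomc: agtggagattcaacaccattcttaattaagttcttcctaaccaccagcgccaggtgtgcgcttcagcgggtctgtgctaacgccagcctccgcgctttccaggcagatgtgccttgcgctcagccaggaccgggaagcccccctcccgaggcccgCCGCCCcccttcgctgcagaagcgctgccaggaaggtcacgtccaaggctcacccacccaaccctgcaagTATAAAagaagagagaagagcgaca
Oprl1: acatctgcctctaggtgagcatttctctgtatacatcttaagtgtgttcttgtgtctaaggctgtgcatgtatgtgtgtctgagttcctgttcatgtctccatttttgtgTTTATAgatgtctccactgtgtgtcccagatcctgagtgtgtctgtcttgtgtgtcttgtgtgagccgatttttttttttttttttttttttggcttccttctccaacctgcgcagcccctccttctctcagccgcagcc
The Pomc window held a TATA box that began 25 bases before the start and 1 GC box, the Oprd1 window 4 GC boxes, the Oprl1 window a TATA box on the opposite strand 140 bases before the start, and the Pdyn window 1 CCAAT box. None of the 4 windows held the half-site letters. Among 32851 promoter windows of the same length, 12.4% held the TATA letters, 17.8% the half-site, 32.7% the GC box and 33.8% the CCAAT box. A match is a description of these letters and not a site of binding.

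Penk was set beside markers of striatal and central amygdala projection neurons, since these cells make enkephalin and lie next to the BLA. The summed level of 14 such markers was 193 to 625 CPM in isolated VTA, 191 to 224 CPM in group-housed VTA, 1068 to 2731 CPM in isolated BLA and 810.3 to 1863 CPM in group-housed BLA. Among the 6 BLA libraries, the order by Penk was the same as the order by this sum in all 6 places, and among the 6 VTA libraries in 2 places. For Pdyn the BLA orders were alike in 3 of 6 places, and for Oprd1 in 2 of 6. The sum of 6 myelin markers gave the same BLA order as Penk, from 5164 CPM in isolated library 1 to 2561 CPM in group-housed library 3. The match in order was thus not particular to the striatal markers. Penk lay between 27.2% and 32.3% of the striatal marker sum in every BLA library, and between 17.3% and 35.5% in the VTA libraries. The highest VTA share was that of isolated library 3. That library held 79.8 CPM of Ppp1r1b, which encodes the striatal phosphatase inhibitor DARPP-32, against 7.34 to 19.3 CPM in the other VTA libraries. It also held 36.9 CPM of the adenosine receptor gene Adora2a, against 0.976 to 3.97 CPM. Not all markers of the list were highest there. Tac1 lay at 55.6 CPM in that library and at 58.2 and 61.9 CPM in group-housed VTA libraries 1 and 2. Drd2 lay at 31.32 CPM in it and at 31.65 CPM in group-housed VTA library 3, and Isl1 was highest in a group-housed library. The marker list passed the test of VTA against BLA at 10 of its 14 genes, all lower in VTA, beside 47.7% of all genes called and 23.7% called lower. The part of these cells in the difference of Penk, Pdyn and Oprd1 between the regions was not tested.

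**Figure D3:**
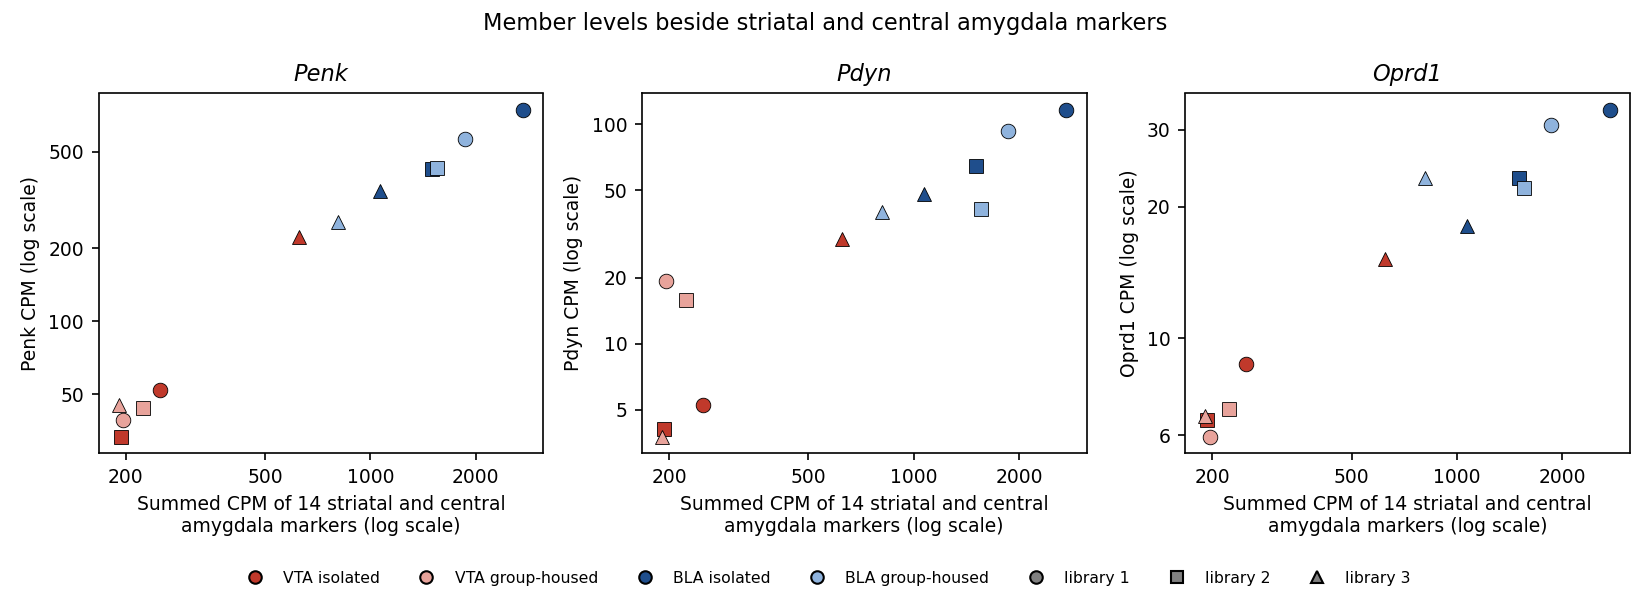
Penk, Pdyn and Oprd1 (vertical axes, CPM, log scale) against the summed CPM of 14 striatal and central amygdala markers (horizontal axis, log scale), 1 point per library, coloured by group. Isolated VTA library 3, at a marker sum of 625 CPM, lies next to the BLA libraries in all 3 panels, and group-housed VTA libraries 1 and 2 stand above the other VTA libraries of like marker sum for Pdyn, at 19.3 and 15.9 CPM.

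In the VTA punches of females, the question was whether isolation changed these genes. Of the 8 genes, 3 were higher and 5 lower in isolated than in group-housed VTA, and 0 passed the test (edgeR, adjusted over 24082 genes), as did 0 with DESeq2. One, Pomc, had an unadjusted p under 0.05, as did 18.3% of all genes, and 0.00415% of all genes (1 of 24082) passed the adjusted threshold. The median log2 fold change of the 8 genes was -0.06, and that of all genes tested 0.00. Pomc was also the one gene whose groups did not overlap, while 29.1% of all genes separated the groups, 17.4% being higher and 11.6% lower.

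Pomc averaged 1.89 ± 0.0282 CPM in isolated VTA and 9.61 ± 10.2 CPM in group-housed VTA (SD, n = 3 each). Its log2 fold change was -2.41 (SE 0.89, edgeR adjusted p = 0.264), and 3 of 3 isolated libraries lay below every group-housed one. Without group-housed library 1 the log2 fold change was -1.07. Hypothalamic and pituitary genes were uneven in the same libraries. Pmch, the melanin-concentrating hormone gene of the lateral hypothalamus, lay at 0.203, 4.57 and 0.0999 CPM in isolated VTA libraries and at 37.2, 52.3 and 2.94 CPM in group-housed libraries. The orexin gene Hcrt lay at 0.136, 0.286 and 0.183 CPM in isolated libraries and at 3.46, 16.0 and 0.797 CPM in group-housed libraries. Cga, the shared subunit gene of pituitary glycoprotein hormones, had 148 counts in group-housed library 1 and 0 to 7 in the other VTA libraries. Tbx19, a transcription factor gene of Pomc cells in the pituitary, lay at 0.181, 0.323 and 0 CPM in isolated libraries and at 1.21, 0.866 and 0.0476 CPM in group-housed libraries.

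Over the whole lists, the 10 hypothalamic markers summed to 13.4 to 59.8 CPM in isolated VTA and to 35.4 to 123.7 CPM in group-housed VTA, with 8 tested and 0 of these higher in isolated VTA. The 9 pituitary markers summed to 3.95 to 6.78 CPM in isolated VTA and to 3.43 to 7.87 CPM in group-housed VTA, with 2 of 5 tested higher in isolated VTA. Members of these lists did not all follow Pomc. Sim1 and Foxb1, transcription factor genes of the hypothalamus, were highest in isolated library 2, at 27.3 and 17.96 CPM. The prolactin gene Prl lay at 0.971, 0.61 and 2.68 CPM in isolated VTA libraries and at 0.0592, 0.051 and 0.0476 CPM in group-housed libraries. The growth hormone gene Gh was at 0 counts in the 3 group-housed VTA libraries, and had 19 to 49 counts in the isolated ones. The part of neighbouring tissue in the Pomc values was not tested. The higher set of Pdyn levels in VTA was made up of group-housed libraries 1 and 2, which also held the most Pmch, and isolated library 3, which had the highest striatal marker sum. These markers were set beside Pdyn after its levels were seen, and the part of neighbouring tissue in the Pdyn values was not tested.

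**Figure D4:**
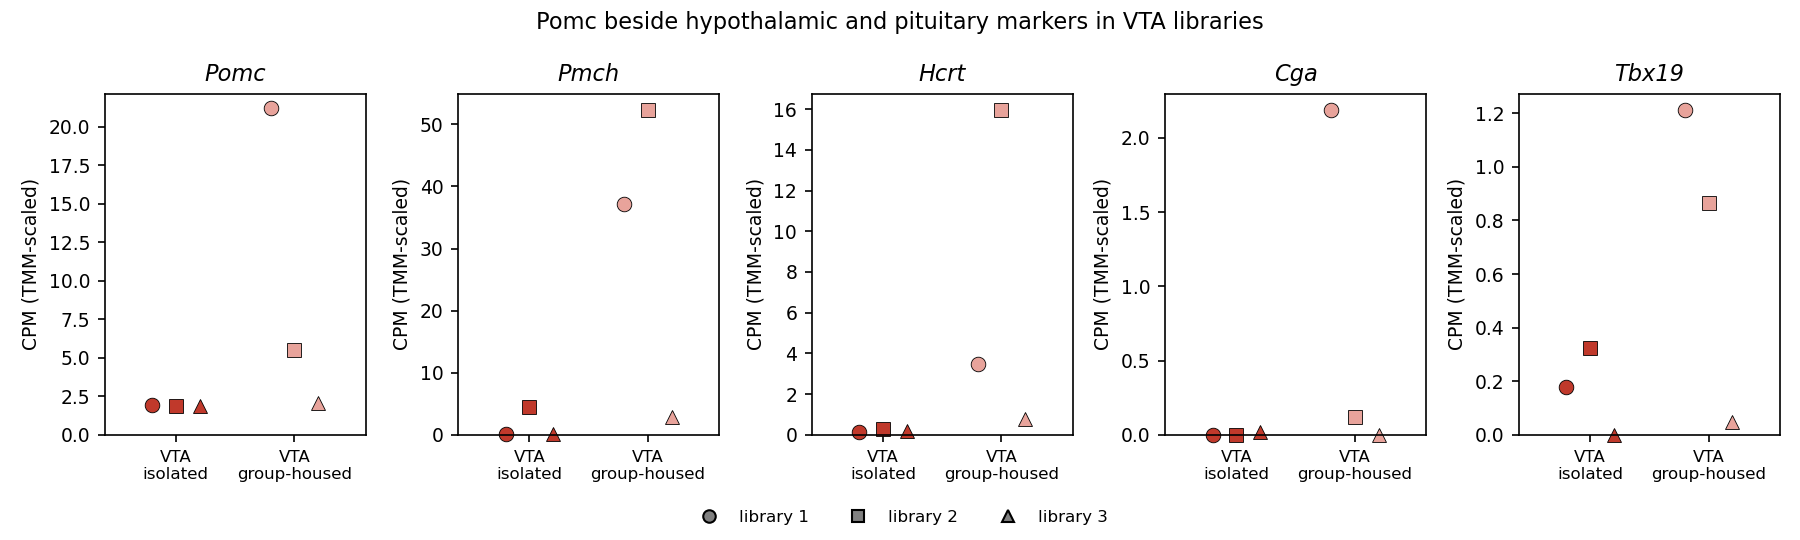
Pomc and 4 marker genes of hypothalamus (Pmch, Hcrt) and pituitary (Cga, Tbx19) in the 6 VTA libraries, in TMM-scaled CPM on linear axes that start at 0, 1 point per library. The Pomc levels of the isolated libraries lie together between 1.87 and 1.92 CPM, and group-housed libraries 1 and 2 are the highest for each of the 5 genes. The 4 markers were chosen after their values were seen. Other members of the same lists are not drawn, and many of them do not show this order. Among these are Prl, Gh, Sim1, Foxb1, Otp, Avp, Tshb, Lhb and Pou1f1, while Agrp and Trh do show it.

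Penk averaged 102.4 ± 103.7 CPM in isolated VTA and 42.9 ± 3.10 CPM in group-housed VTA (SD, n = 3 each), a log2 fold change of 1.19 (SE 0.78, edgeR adjusted p = 0.444). Isolated library 3 decided this value, which was -0.06 without it. That library also had the highest sum of 10 choroid plexus markers, at 3465 CPM against 39.7 to 274.2 CPM in the other VTA libraries, and of 10 markers of cortical and basolateral glutamate neurons, at 534.8 CPM against 127.5 to 215.3 CPM. Oprd1 averaged 10.1 ± 4.49 CPM in isolated VTA and 6.49 ± 0.485 CPM in group-housed VTA (SD, n = 3 each). Its log2 fold change was 0.58 (SE 0.28, edgeR adjusted p = 0.305), and 0.18 without isolated library 3. Between isolated and group-housed VTA, 13 of the 14 striatal markers were higher and 0 passed, their median being 0.51 on the log2 scale. This was not particular to the striatal list. Higher too were 10 of 10 choroid plexus, 9 of 10 cortical and basolateral, 6 of 6 myelin and 6 of 6 microglia markers. In contrast, 0 of 8 hypothalamic and 0 of 5 dentate granule markers tested were higher. The part of striatal, choroid plexus and glutamate neuron tissue in the Penk and Oprd1 values was not tested. For Pdyn the value was -0.05 (SE 1.04), or -1.52 once isolated library 3 was left out. The remaining 4 genes had log2 fold changes between -0.09 (Oprm1, SE 0.11) and 0.03 (Oprl1, SE 0.10), with Pnoc at -0.07 (SE 0.29) and Oprk1 at -0.07 (SE 0.08).

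In the BLA punches of males, 5 of the 8 genes were higher and 3 lower in isolated than in group-housed libraries, and 0 passed the test (edgeR, adjusted over 22110 genes), as did 0 with DESeq2. None had an unadjusted p under 0.05, whereas 1.99% of all genes did, and 0% of all genes passed the adjusted threshold. No gene of the 8 separated the groups, as 7.11% of all genes did, 4.15% being higher and 2.96% lower. The median log2 fold change of the 8 genes was 0.06, and that of all genes 0.00. Penk averaged 504.3 ± 211 CPM in isolated BLA and 417 ± 156 CPM in group-housed BLA (SD, n = 3 each), a log2 fold change of 0.28 (SE 0.40). Pdyn averaged 76.0 ± 35.6 CPM in isolated BLA and 58.0 ± 30.4 CPM in group-housed BLA, a log2 fold change of 0.40 (SE 0.51). Both fold changes turned negative, to -0.11 and -0.05, without isolated library 1, the BLA library with the highest striatal and the highest myelin marker sum. Of the 14 striatal markers, 13 were higher in isolated BLA and 0 passed, with a median of 0.37 on the log2 scale, and their part in the Penk and Pdyn values was not tested. With those 3 ribosomal RNA-rich BLA libraries left out, 2 isolated libraries and 1 group-housed library remain, and Penk stood at 1.19 (SE 0.35) and Pdyn at 1.18 (SE 0.40), each with an edgeR adjusted p = 1. The other 6 genes lay between -0.16 (Pnoc, SE 0.20) and 0.36 (Pomc, SE 0.32), with Oprm1 at 0.07 (SE 0.16), Oprk1 at 0.04 (SE 0.19), Oprd1 at -0.02 (SE 0.22) and Oprl1 at -0.04 (SE 0.14). The edgeR adjusted p was 1 for each of the 8 genes.

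**Figure D5:**
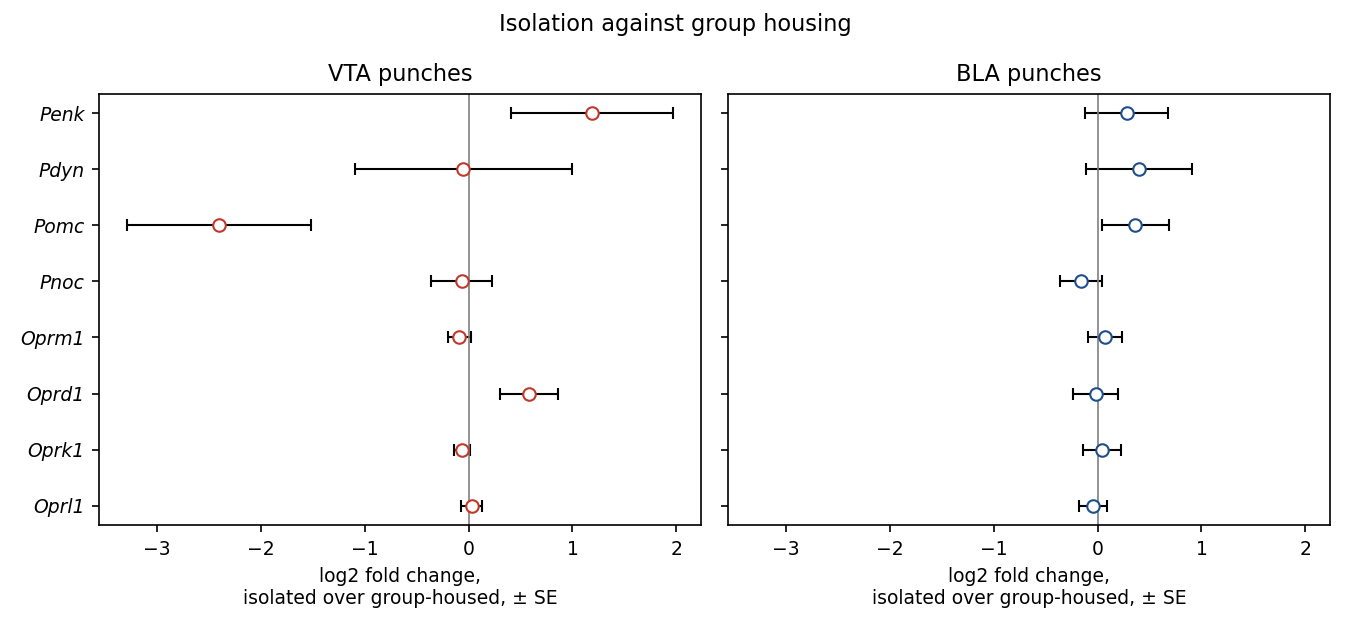
Log2 fold change of isolated over group-housed libraries for each gene, VTA on the left and BLA on the right. Bars are ± SE, derived from the F statistic of the edgeR test of the 6 libraries of a region. Open points did not pass an adjusted p of 0.05. In VTA the points for Pdyn (-0.05), Pomc (-2.41) and Penk (1.19) have wide bars, the widest being that of Pdyn (SE 1.04). In BLA all points lie between -0.16 and 0.40.

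The difference of the isolation responses, BLA minus VTA, was tested on all 12 libraries. It passed for 0 of the 8 genes with edgeR and for 0 with DESeq2, and 1 gene, Pomc, had an unadjusted p under 0.05, as did 14.9% of 25009 genes, and 0% of these 25009 passed the adjusted threshold. The difference for Pomc was 2.69 (SE 1.00, edgeR adjusted p = 0.306), and 1.37 without group-housed VTA library 1. That for Penk was -0.98 (SE 0.95) and that for Oprd1 -0.67 (SE 0.43).

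Genes that process, break down or transmit the opioid signal were examined in 7 lists. In VTA against BLA, 39 of their 58 tested members passed the same edgeR test, 11 higher and 28 lower in VTA, beside 47.7% of all genes tested, 24.1% being higher and 23.7% lower. Of 12 genes of precursor processing, 3 were higher in VTA, namely Ctsl, Pam and Scg5, and 4 lower, namely Pcsk2, Tpst2, Furin and Cpd. Pcsk2, a convertase that cuts Penk and Pdyn precursors, stood at -0.75 (SE 0.07) on the log2 scale, and Pam, the enzyme that amidates peptides, 0.80 (SE 0.10). Of 11 peptidase genes, Ece2 (1.39, SE 0.15) and Ace (1.26, SE 0.17) were higher in VTA, and Thop1 (-0.60, SE 0.06), Nln and Npepps were lower. The list medians were 0.02 and 0.08, beside 0.02 for all genes.

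Downstream of the receptors, the G protein-gated potassium channel genes Kcnj3 (-1.04, SE 0.11), Kcnj9 and Kcnj6 were lower in VTA and Kcnj5 was higher (1.79, SE 0.25). Among 5 inhibitory alpha subunit genes, Gnao1 (-0.92, SE 0.10) and Gnaz (-0.47, SE 0.07) were lower and Gnai2 and Gnai3 higher. Of 8 adenylyl cyclase genes, Adcy7 (1.79, SE 0.10) and Adcy8 were higher, and Adcy9 (-0.84, SE 0.09), Adcy1, Adcy5, Adcy2 and Adcy3 were lower. The receptor kinase genes Grk5 (-0.76, SE 0.10), Grk3 (-0.32, SE 0.07), Grk6 and Grk2 were lower, with 0 of the 7 members of that list called higher. Of 11 genes of RGS proteins, which switch off G proteins, Rgs10 was higher, and Rgs20 (-1.46, SE 0.14), Rgs2 (-0.61, SE 0.09), Rgs4, Rgs7, Rgs14, Rgs9 and Rgs19 were lower. Medians of these 5 lists were -0.56, -0.19, -0.32, -0.20 and -0.57 in the order given, beside 0.02 for all genes. Adcy5 and Rgs9 are, as background, strongly expressed in striatal neurons. Of the 14 striatal markers, 10 were called lower in VTA, whereas Tac1 (0.09) and Isl1 (0.32) were not lower. The part of these neurons in the Adcy5 and Rgs9 values was not tested.

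None of the 58 genes passed the edgeR test of isolation against group housing in VTA or BLA, or of the difference of the responses. At an unadjusted p under 0.05 there were 11 of the 58 in VTA, beside 18.3% of all genes, 0 in BLA, beside 1.99%, and 12 for the difference, beside 14.9%. The count in VTA is near the share over all genes, and the genes below are named by their p alone. In isolated VTA the peptidase Ece2 had the smallest p of the 7 lists, at -0.93 on the log2 scale (SE 0.18, edgeR adjusted p = 0.236). The carboxypeptidase Cpe, which trims the ends of cut peptides, followed at 0.38 (SE 0.09), then Pcsk2 at 0.32 (SE 0.09) and Kcnj3 at 0.26 (SE 0.08), each with the same adjusted p. In isolated BLA the smallest p-values were those of Thop1 (-0.19, SE 0.09) and Gnaz (-0.21, SE 0.11), edgeR adjusted p = 1.

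The genes whose levels ran most like each of the 8, after each region's mean was taken off, were looked for among 16657 genes of at least 1 CPM on average over the 12 libraries. Those of Penk included Itpr1 and Sh3rf2, at Pearson r of 0.996 and 0.989. Those of Pdyn were Chia1, Dlx6 and Serpinb1b (r from 0.954 to 0.956), and those of Oprd1 Gm37711, Lzts3 and Adora2a (r from 0.948 to 0.975). For Pomc they were Dnah3, Crocc2 and Fzd5 (r from 0.908 to 0.947), and for Pnoc Tnfrsf13b, Esyt1 and Mgrn1 (r from 0.871 to 0.892). For Oprm1 they were Rbms1, Arid3b and Ptgr2, for Oprk1 Pola1, Gtf3c5 and Lrrc1, and for Oprl1 Zbed5, Mcts1 and Araf, with r from 0.91 to 0.949. These values describe 12 libraries that differ in depth and in neighbouring tissue, and carry no test. A single library can weigh heavily in them. With the region mean taken off, Penk stood at 1.97 in isolated VTA library 3 and from -0.76 to 0.77 in the others, on the log2 scale. Pomc stood at 2.24 in group-housed VTA library 1 and from -0.72 to 0.47 in the others. Adora2a was among the 14 striatal markers summed above.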

How the data were processed

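RNA of brain punches was extracted with Trizol, and stranded total RNA libraries were made from 1 ug after ribosomal RNA depletion, per the labels' protocols. The deposited values are raw counts per gene. Tools listed by the submitters' processing notes are HTSeq, TopHat2 and cutadapt, with mm10 as build. Versions, annotation and strand setting: not given in the sources used here. Group and replicate came from sample titles. The per-sample tables were used, and the table of the whole series held the same counts for the 8 genes and differed at 2 entries. The 12 pairs of libraries within groups differed beyond sampling noise (lowest chi-square per degree of freedom 20.8).

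Tests used the robust quasi-likelihood method of edgeR 4.0.16 under R 4.3.3, with TMM factors and the filterByExpr filter (at least 10 counts, 15 in total), on the 6 libraries of a region for isolation and on all 12 for the difference of responses and for VTA against BLA. Benjamini-Hochberg adjustment covered the full set of tested genes, and 0.05 was the limit for a call. The edgeR test gives no SE. Each SE printed here is the size of the log2 fold change divided by the square root of its F statistic, an approximation that is poor for genes of few counts. All 8 genes passed the filter. Exon lengths came from GENCODE M21. DESeq2 1.42.0 was an alternative, beside other factors, filters, a replicate block and left-out libraries. Genes most alike were the 3 with the highest Pearson r of log2(CPM + 1), of which 1 is not reported here. Pathway genes were named when called, or as the first by p, up to 2 in each list. Marker genes were named after their values were seen. Scripts were tested on simulated data. The genes and lists were chosen with earlier results of these data known. Figures were drawn with matplotlib 3.10.9.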

Additional observations from a re-analysis of the deposited data

How the results depend on the processing

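Of the 8 genes, 0 passed for isolation in VTA, in BLA or for the difference of responses under every alternative run. Leaving out the 3 BLA libraries leaves 1 group-housed BLA library, and leaving out the 2 VTA libraries leaves 1 isolated VTA library, so those fits assume that the lone library varies like the others and say little of stability. For VTA against BLA, 7 passed, 6 to 7 when each library was left out in turn, 5 without the 3 BLA libraries rich in ribosomal RNA reads, 5 without the 2 VTA libraries rich in choroid plexus markers (isolated 1 and 3), 5 within group-housed libraries and 4 within isolated libraries, the last pair of alternatives being chosen after seeing the data. All 7 genes called in the main test kept their direction in these, and Oprm1, which was not called, did not. Over the whole table, calls for isolation in BLA numbered 6 with DESeq2, 8 without the low-count filter, 1 without the 3 BLA libraries and 0 to 4 with a library left out, beside 0. In VTA they numbered 486 with DESeq2, 17 without the filter, 0 without the 2 VTA libraries and 0 to 1200 with a library left out (1200 without isolated library 2), beside 1. For the difference of responses they numbered 138 with DESeq2, 1 without the filter and 0 to 487 with a library left out, beside 0. The causes were not tested.

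Directions that turned were all of values that had not passed. Without the 3 BLA libraries, the log2 fold change in BLA was -0.0077 for Pomc and 0.28 for Oprd1, and it moved to 1.19 for Penk (unadjusted p = 0.00772 by edgeR) and 1.18 for Pdyn (unadjusted p = 0.0349 by edgeR), both at an adjusted p of 1. In the same setting the difference of responses was 0.0114 for Penk, and VTA over BLA was 0.077 for Oprm1. Without the 2 VTA libraries, the value in VTA was -0.38 for Penk (edgeR unadjusted p = 0.00835, adjusted p = 0.986), 0.024 for Oprm1, -0.0204 for Oprd1 and -0.058 for Oprl1, the difference of responses 0.63 for Penk and 0.15 for Pnoc, and VTA over BLA 0.0046 for Oprm1, which was 0.0102 within group-housed libraries. Pdyn in VTA was 0.0184 in a fit of all 12 libraries. With each library left out in turn, values in BLA ran from -0.11 to 0.56 for Penk, -0.0458 to 0.91 for Pdyn, -0.31 to 0.0168 for Pnoc, -0.09 to 0.16 for Oprm1, -0.29 to 0.16 for Oprd1, -0.16 to 0.23 for Oprk1 and -0.20 to 0.0418 for Oprl1. In VTA they ran from -0.0578 to 1.61 for Penk, -1.52 to 0.38 for Pdyn, -0.36 to 0.21 for Pnoc and -0.0645 to 0.0841 for Oprl1. The difference of responses ran from -1.40 to 0.29 for Penk, -0.0621 to 1.87 for Pdyn, -0.44 to 0.15 for Pnoc, -0.0554 to 0.22 for Oprm1 and -0.15 to 0.25 for Oprk1, and VTA over BLA from -0.10 to 0.0389 for Oprm1.

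Libraries of the same number did not consistently deviate together (r of 0.375, -0.109 and -0.006 in BLA, and of -0.101, 0.022 and -0.048 in VTA), so the numbers were not taken as pairs. The r of 0.375, between isolated and group-housed BLA library 1, was the highest of all pairs compared across housing groups. With a replicate block, 7 genes passed for VTA against BLA and 0 elsewhere, and the whole table had 0 calls in VTA. In BLA, the block gave edgeR unadjusted p-values of 0.029 for Penk (0.27) and 0.00206 for Pdyn (0.41), both at an adjusted p of 1.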
